A study of Saccharomyces cerevisiae and Saccharomyces paradoxus with 173 samples.

Results

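YPS3060 is a natural strain of the budding yeast Saccharomyces cerevisiae, and the samples described here are the 9 of its time course that were hybridised only to array prints of 2007. They were taken at 24, 63, 111, 152, 194, 227, 260, 301 and 345 min after release from a pheromone arrest, and were chosen by strain, time and print year as the labels give them, so no measured value chose them. They are 9 of the 173 samples of the series. The other 9 times of the same strain (0, 48, 87, 135, 176, 218, 251, 284 and 325 min) include prints of earlier years and are kept apart. They were compared with 8 further strains of the species, averaged (YPS183, YPS2055, YPS2060, YPS2066, YPS2067, YPS2073, YPS2079 and YPS3137) at the same times where they were sampled, 66 samples in all. YPS3395, labelled S. paradoxus, was left out.

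Every strain was treated alike. Per the labels, cells grew in synthetic dextrose (SD) minimal medium at 30 °C and were held with 4 µM of the mating pheromone alpha factor for about 75 min. They were washed and then resuspended in fresh SD at 18 °C, a temperature that lengthens the cell cycle. Each culture was distributed over flasks after release, and the labels describe 1 time course per strain, so the p-values below do not cover the spread between cultures of a strain. The labels give no genotype beyond the strain name. Each sample was compared on 2-colour spotted oligonucleotide arrays with a common reference, RNA of unsynchronised YPS183 cells grown in the rich medium YPD. The deposited values are log ratios of sample to reference, treated here as log2 ratios, so a value of 1 stands for a ratio of 2.

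Alpha factor is the peptide by which alpha cells court a cells. Its receptor drives a kinase cascade that turns on mating genes and holds the cell before the G1/S transition. Once the pheromone is washed away, transcription runs in waves. The factors SBF and MBF turn on G1 cyclins and replication genes at the end of G1, histone genes follow in S phase, the Mcm1-Fkh2-Ndd1 complex drives the mitotic genes, and Swi5 then turns on genes of late mitosis and daughter cell separation. In bulk RNA, fewer cells in a stage and less RNA per cell cannot be told apart, and cultures lose synchrony as they proceed.

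Of the 9 YPS3060 samples, 7 rested on 2 arrays and 2 on 3, with both dye orientations in each. The spread of their log2 ratios over 6172 genes had a standard deviation between 0.731 and 0.985, their medians lay between -0.0112 and 0.0268, and no value was beyond 8 in size. Each correlated with the mean of the other strains at its time at r = 0.902 to 0.946 across genes, a description of arrays that share 1 reference. Among the comparison strains YPS2073 stood apart. It used older prints in 8 of its 9 samples and held 277 values beyond 8 in size. Counts over all genes that move by over 1.5 times without it are therefore given both ways. Counts within the gene lists are given without it only in part. The number of arrays limits the precision of every value.

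The first question was which genes changed over time in YPS3060. A strain-specific natural spline with 4 degrees of freedom was tested with limma across all genes, and a gene was called at a Benjamini-Hochberg adjusted p under 0.05 with a fitted range of at least 1. In YPS3060 282 of 6172 genes were called, which is 4.57%, and 375 passed the adjusted p alone (6.08%). The same fit called between 104 genes (YPS2079) and 577 genes (YPS2067) in the other strains. Of the 282 genes, 91 had their fitted peak at 24 min and 109 their fitted trough there, so the sample closest to the arrest carried much of the change. Those are 32.3% and 38.7% of the called genes, against 25.1% and 23.4% of all genes. A further 66 genes had their fitted peak at 345 min, 23.4% of the called genes against 18.1% of all genes. Without YPS2073 360 genes were called, 281 of them shared. Without the 24 min samples the count was 133, of which 119 were among the 282. Without 152, 194 or 227 min it was 186, 160 and 165.

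**Figure D1:**
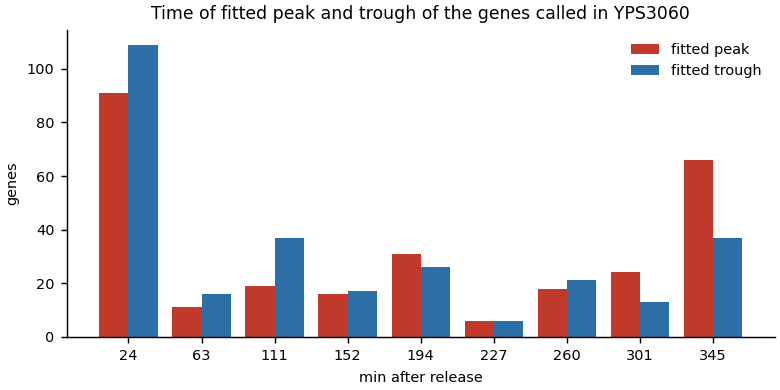
Number of the 282 genes called for a time course in YPS3060 by the time, in min after release, of their fitted peak (red) and fitted trough (blue). Most sit at the ends of the series, with 91 peaks and 109 troughs at 24 min and 66 peaks at 345 min. Of all genes 25.1% had their fitted peak and 23.4% their fitted trough at 24 min, and 18.1% their peak at 345 min.

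The pheromone-induced genes AGA1, FIG1 and FIG2 were high at 24 and 63 min and low from 111 min. Of 25 measured genes of the pheromone response, 8 were called for a time course, all with the fitted peak at 24 min, and 4 were called without the 24 min samples. AGA1, the cell-surface anchor of the a-agglutinin, had log2 ratios of 0.82 at 24 min, 0.22 at 63 min and -2.25 at 111 min, and stayed between -2.93 and -2.39 from then on (fitted range 4.14, limma adjusted p = 5.56e-09). Its change from 24 to 111 min was -3.06 in YPS3060. The 6 other strains sampled at both times averaged -1.08 ± 0.96 (SD), and their lowest was -2.28. Here and below, the pairs of times for such changes mostly follow the highs and lows of YPS3060 itself. That choice favours a larger change in YPS3060 than in the others, so these changes are descriptions. FIG1, a membrane protein of mating cells, had 1.62 and 1.45 at the first pair of times and lay between -0.62 and 0.04 afterwards. FIG2, a mating-induced cell wall adhesin, had 2.04 and 1.74, and its later values lay between -0.53 and -0.04. SCW10, a cell wall glucanase of mating, fell from 1.37 at 24 min to -2.08 at 194 min and stood at 0.76 at 260 min, so it had a second high that AGA1 and FIG2 lacked. CHS1, the chitin synthase of cell wall repair, had 0.95 at 24 min, -1.42 at 152 min and 1.01 at 227 min. FUS1, the cell fusion protein often used as a pheromone reporter, was not called. Its values ranged from 0.19 at 63 min to -0.72 at 111 min. The mean over the 25 genes was 0.40 at 24 min and 0.29 at 63 min in YPS3060, above every other strain sampled at those times, and -0.38 at 111 min. The other strains averaged 0.05 ± 0.21 (SD, n = 8 strains) at 24 min and -0.20 ± 0.16 (n = 6) at 111 min. From its highest to its lowest time the list mean spanned 0.83 in YPS3060 and 0.24 to 0.72 in the others. These list means are descriptions, with no test.

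Genes that only MATa cells transcribe moved alongside. Of 6 measured, 4 were called, each with the fitted peak at 24 min, and 2 were called without the 24 min samples. MFA1 and MFA2 encode the a-factor mating pheromone. MFA1 had -0.81 and -0.73 at the first pair of times, -4.04 at 111 min, -2.52 at 194 min and -4.46 at 301 min. MFA2 had -0.57 and -0.42, then -4.00 at 111 min, -0.41 at 194 min and -4.22 at 301 min. Both genes therefore had a low, a partial return near 194 min and a second low. MFA2's change from 63 to 111 min was -3.58 in YPS3060 and -1.07 ± 0.87 (SD) in the 5 other strains with both times, of which 0 went lower. STE2, the alpha-factor receptor, had 1.19 at 24 min, -1.2 at 111 min, 0.28 at 194 min and -1.33 at 301 min. BAR1, the protease that degrades alpha factor, fell from -1.47 at 24 min to -3.44 at 345 min.

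Markers of other cell types stayed near the reference level in the same samples. Of 4 listed MATalpha genes 1 was measured. It, MF(ALPHA)1, ranged from -0.14 to 0.22 in the 9 samples and was not called for a time course or a level. Of 16 measured meiosis genes, which starved diploid cells transcribe, 0 were called for a time course or a level. NDT80, the meiotic transcription factor, ranged from -0.06 to 0.17 and SPO11, the nuclease that starts recombination, from -0.22 to 0.13. Since the reference is itself a yeast culture, a ratio near 0 says only that both RNAs gave a similar signal.

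The mean over G1/S genes of replication and repair was high at 24 min, low at 152 min and high again at 227 min. Of 40 measured genes of replication and repair 8 were called, all with the fitted peak at 24 min, and 3 were called without the 24 min samples. RNR1, the large subunit of ribonucleotide reductase, had 1.83, 0.79, -0.42, -1.91, -0.50, 1.43, 1.05, -0.10 and -0.99 in the order of the times (fitted range 3.31, limma adjusted p = 0.0244). Its change from 152 to 227 min was 3.34 in YPS3060. The 6 other strains with both times averaged 0.69 ± 1.10 (SD), and their highest was 2.39. Those times are the lowest value and the second high of RNR1 in YPS3060, a choice that favours a larger change there. POL30, the sliding clamp of DNA polymerase, had 1.37, 1.47, 0.18, -1.09, 0.17, 1.81, 1.09, 0.16 and -0.56, so its second high exceeded its first. The change in POL30 from 152 to 227 min was 2.90, against 0.38 ± 0.81 in the same 6 strains. PRI2, a subunit of DNA primase, ran from 0.85 at 24 and 63 min to -0.53 at 345 min. The calls of RNR1 and POL30 were less firm than those of the mating genes. RNR1 passed the adjusted p in 10 of 18 alternatives and had 0.0546 without the 24 min samples, and POL30 also passed in 10 of 18.

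Fewer genes of budding and the G1 cyclins were called. Of 24 measured, 3 were called, CRH1, GAS1 and AXL2, with the fitted peak at 24, 63 and 260 min. The count was 5 without the 24 min samples and 6 without YPS2073. CRH1, a transglycosylase that joins chitin to glucan, had 0.95 at 24 min, -1.73 at 152 min and 0.45 at 227 min. CLN2, the G1 cyclin, had 0.14, -0.40, -1.42, -1.16, -0.29, 1.2, 0.66, -0.56 and -0.86. It was not called (fitted range 2.01, limma adjusted p = 0.07), although its value at 227 min was above that of every other strain sampled then. The list mean of these 24 genes changed by 0.86 from 152 to 227 min in YPS3060 and by 0.06 ± 0.31 (SD) in the 6 other strains, with a highest of 0.53. For the replication list the change was 0.72, against 0.12 ± 0.27. At 227 min the list means of YPS3060, 0.44 for replication and 0.47 for budding, were above those of all 7 other strains sampled.

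**Figure D2:**
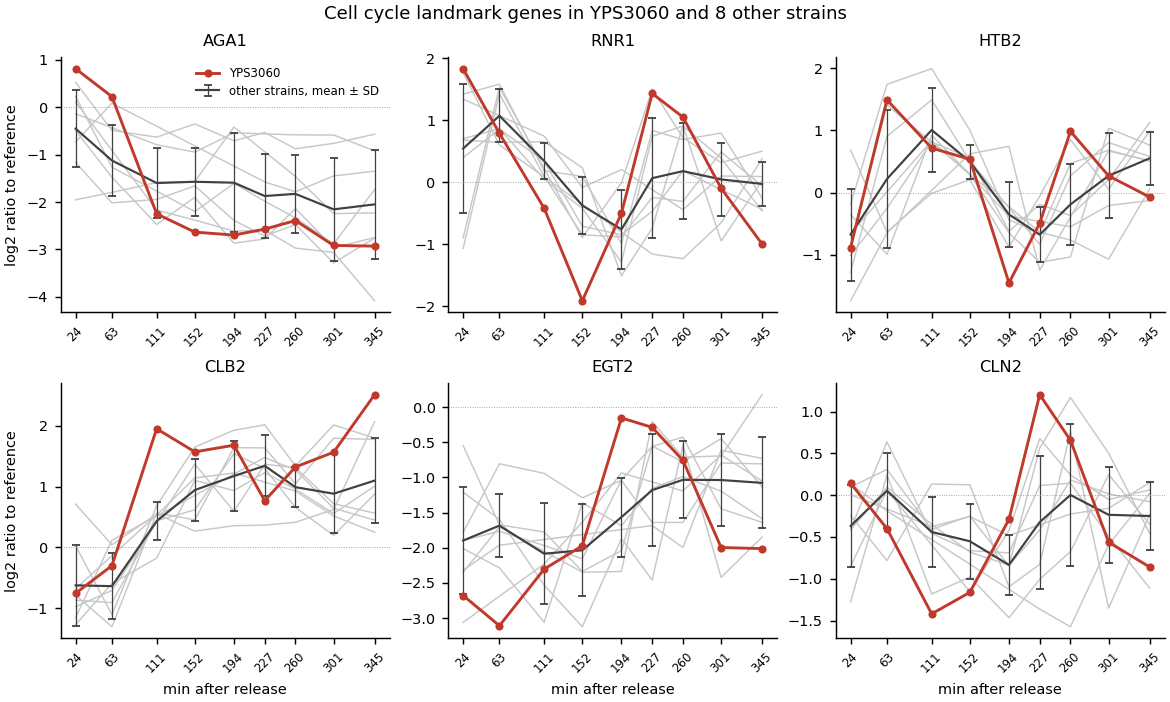
Log2 ratio to the reference of 6 genes at the 9 times, in min after release, in YPS3060 (red), in each other strain (grey) and as the mean and SD of the other strains (dark line). In YPS3060 RNR1 stood at 1.83 at 24 min and 1.43 at 227 min, HTB2 at 1.49 at 63 min and 0.99 at 260 min, and EGT2 at -0.15 at 194 min.

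The histone genes HTA1, HTA2 and HTB2 had their first high at 63 min. Of 10 measured histone genes 5 were called, and 1 without the 24 min samples. HTB2, a histone H2B, had -0.88, 1.49, 0.72, 0.54, -1.45, -0.49, 0.99, 0.27 and -0.07. HTA1, a histone H2A, had -1.07, 1.77, 1.19, 0.95, -0.72, 0.16, 1.37, 0.84 and 0.14. Both were highest at 63 min and had a second high at 260 min. HTA2, the other H2A, had 1.24 at 63 min, -1.81 at 194 min and 1.12 at 301 min, and HTZ1, the H2A.Z variant, had its high of 0.67 at 111 min. From 63 to 111 min HTB2 changed by -0.78 in YPS3060, whereas in all 5 other strains sampled at both times it was higher at 111 than at 63 min, by 0.25 to 1.92. HTA1 changed by -0.58 and likewise went the other way in 5 of 5 strains, by 0.34 to 2.55. These differences between 2 times rest on 1 sample each and were not tested. The spline, with 4 degrees of freedom, placed the fitted peak of both genes at 111 min, later than the highest sample. HTB2 passed the adjusted p in 4 of 18 alternatives and HTA1 in 3 of 18, so neither call was stable.

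Mitotic genes gave the largest share of calls among the cell cycle lists. Of 27 measured G2/M genes 15 were called, all with the fitted trough at 24 min, and 10 were called without the 24 min samples. CLB2, the main mitotic cyclin, had -0.76, -0.30, 1.95, 1.57, 1.68, 0.77, 1.32, 1.57 and 2.52 (fitted range 3.57, limma adjusted p = 0.000275). At 111 min it exceeded all 6 other strains sampled, which averaged 0.43 ± 0.31 (SD). SWI5, the factor that turns on late mitotic genes, had -0.90 at 24 min, 0.51 at 152 min, -0.38 at 260 min and 0.66 at 345 min (fitted range 1.65, adjusted p = 4.06e-06). CHS2, the chitin synthase of the primary septum, rose from -1.93 at 63 min to 1.6 at 152 min, stood at -0.05 at 260 min and reached 1.80 at 345 min. IQG1, which guides the actomyosin ring, had -0.93 at 24 min, 0.75 at 111 min and 0.98 at 345 min. CDC5, the polo kinase, had -0.73 at 24 min, 0.75 at 152 min, -0.12 at 227 min and 0.94 at 345 min. In these genes 1 high fell between 111 and 194 min and another at 345 min, the last sample. The list mean was 0.32 at 111 min, 0.46 at 152 min and 0.55 at 345 min in YPS3060, above every other strain at those 3 times. It was -0.65 at 24 min, below every other strain. The mean spanned 1.2 over the times, against 0.34 to 0.98 in the other strains. From 227 to 345 min CLB2 changed by 1.75 in YPS3060 and by -0.12 ± 0.89 (SD) in 7 other strains, of which the highest, at 1.7, was close to YPS3060. For SWI5 the change was 0.89, against -0.07 ± 0.27.

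The mean over genes of late mitosis and daughter cell separation was highest at 194 and 227 min. Of 20 measured, 7 were called and 5 without the 24 min samples. EGT2, a cell wall glucanase of separation, had -2.68, -3.11, -2.30, -1.97, -0.15, -0.29, -0.76, -2.0 and -2.01. Its level at 194 min was above all 7 other strains. It then fell by 1.84 to 301 min, while the 7 others changed by 0.47 ± 0.87 (SD). ASH1, the daughter-cell repressor of mating-type switching, had -1.41 at 24 min and 0.87 at 194 min. RME1, a regulator of meiotic entry and of G1 cyclins, had -1.28 at 63 min and 0.78 at 194 min. PIR1, a cell wall protein, had -3.23 at 111 min and 1.32 at 194 min, and HSP150, a related wall protein, -3.58 and 0.53. CTS1, the chitinase that frees daughters, was not called, with values between -4.59 at 111 min and -2.82 at 227 min. SIC1, the inhibitor of the S-phase kinase, was not called either and ranged from -0.34 to 0.36. For the M/G1 genes of licensing, 2 of 10 were called, MCM2 and MCM3, helicase subunits whose fitted peak was at 24 min, and 0 without the 24 min samples. The list mean of the separation genes changed by 1.28 from 111 to 194 min in YPS3060, against 0.33 ± 0.54 (SD) in 6 other strains with a highest of 0.84. In the S/G2 list of spindle and kinetochore genes 0 of 23 were called.

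Set in order, the highs of these genes in YPS3060 ran from RNR1 at 24 min through HTB2 at 63 min and CLB2 at 111 min to EGT2 at 194 min. A second round followed with RNR1 and CLN2 at 227 min, HTB2 at 260 min and CLB2 at 345 min. In the mean of the other strains RNR1 was highest at 63 min and HTB2 at 111 min. RNR1 was lower at 63 than at 24 min in YPS3060, by 1.04, and higher in 5 of 7 other strains. The test of curve shape, given further on, called none of RNR1, HTB2, CLB2 and EGT2, with limma adjusted p = 0.302, 0.578, 0.317 and 0.118. These differences in the time of the highs are therefore descriptions. A high can be placed only to the nearest sample. Across the 9 times, the called genes of YPS3060 had a median Pearson r of 0.69 with the mean of the other strains. This r was over 0.5 for 211 of the 282 genes and under 0 for 15, and its median over all genes was 0.218.

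**Figure D3:**
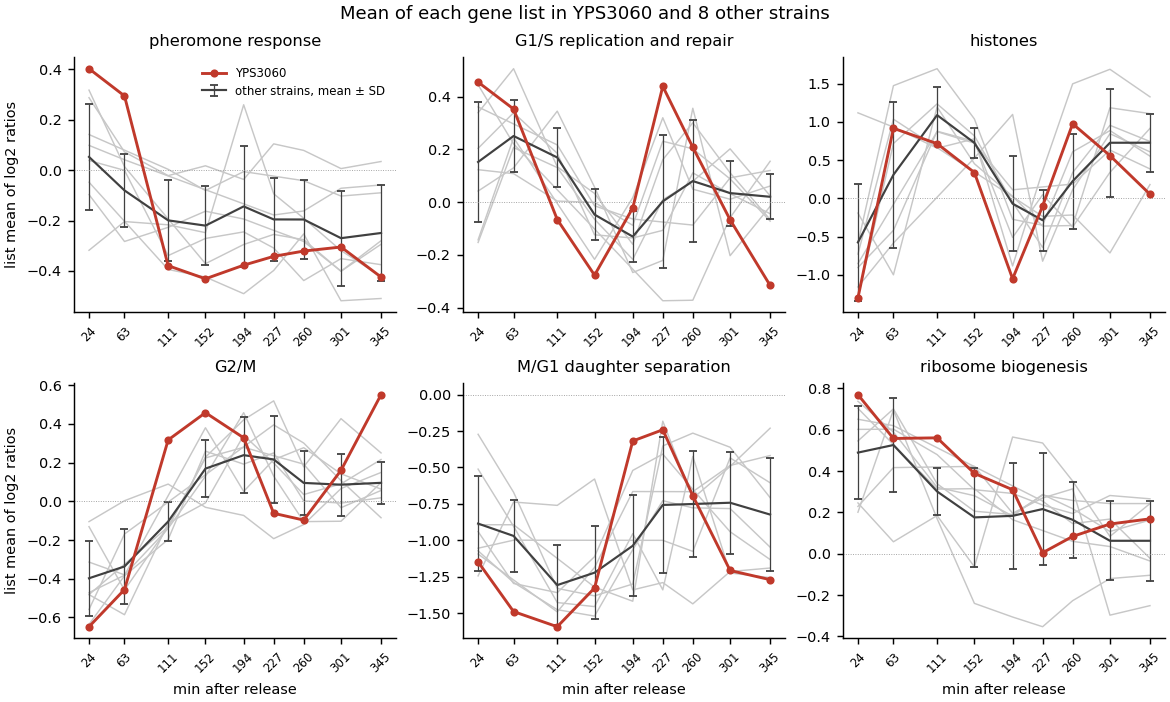
Mean log2 ratio over the measured members of 6 gene lists at the 9 times, in min after release, in YPS3060 (red), each other strain (grey) and the mean and SD of the other strains (dark line). The pheromone list stood at 0.40 at 24 min, the G1/S replication genes at 0.44 at 227 min and the mitotic genes at 0.55 at 345 min in YPS3060, each above every other strain.

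Several lists outside the cell cycle also held called genes. Of 23 genes of iron uptake 6 were called, of which 5 had the fitted trough at 24 min, and 3 were called without that time. FET3, the multicopper oxidase of iron transport, rose from -0.07 at 24 min to 2.57 at 301 min, and ARN1, a siderophore transporter, from 0.60 at 63 min to 3.38 at 345 min. ZRT1, the high-affinity zinc transporter, had 0.32 and 0.33 at the first pair of times and 2.89 to 4.61 from 111 min on (fitted range 4.39, adjusted p = 2.44e-05). Among 26 stress genes 6 were called, and 4 without the 24 min samples. The cytosolic chaperones SSA1 and SSA2 had 0.95 and 1.5 at 24 min, were -2.42 and -2.43 at 152 min, and had -0.63 and -0.42 at 345 min. Their co-chaperone SIS1 had 0.56 at 24 min and -1.49 at 111 min. HSP31, a stress-induced chaperone, and GPD1, the glycerol phosphate dehydrogenase, went the other way and had 1.84 and 2.36 at 345 min. HXT2, a hexose transporter, fell from 1.70 at 24 min to -1.55 at 301 min. Of 31 ribosome biogenesis genes 5 were called, all with the peak at 24 min, and 0 without that time. The RNA helicase DBP2 went from 1.88 at 24 min to -0.51 at 227 min. Of 138 ribosomal protein genes 8 were called, of which 7 had the trough at 24 min, and 2 without that time. The share of 5.8% is near the background of 4.57%, but without YPS2073 20 were called, a share of 14.5% against 5.83% of all genes. One of them, RPS26B, had -0.85 at 24 min and 0.89 at 152 min and correlated with the mean of the other strains at r = -0.52 over the 9 times. In the other lists between 0 and 4 genes were called. Outside the lists, among the 12 called genes with the largest fitted range, MRH1, a plasma membrane protein, rose from -2.70 at 24 min to 2.09 at 194 min. HPF1, a cell wall mannoprotein, rose from 0.22 at 24 min to 4.29 at 301 min, and NCE102, a protein of the eisosome, rose from -1.01 at 24 min to 2.33 at 345 min. YFL002W-A ranged from -6.80 to -0.43 and passed in only 5 of 17 alternatives.

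The second question was whether the shape of a gene's curve in YPS3060 differed from the mean curve of the other strains once the level was removed. In the same limma fit 11 genes were called at an adjusted p under 0.05 and a centred deviation of at least 1, which is 0.178% of 6172, and 33 passed the adjusted p alone (0.535%). The other strains had between 4 and 366 such genes, the highest in YPS2073. All 11 were also among the 282 genes with a time course. In AGA1 the curve of YPS3060 lay 1.98 above that of the other strains at 24 min, relative to the mean over the times (adjusted p = 0.000512). FIG1 lay 1.31 above at the same time (adjusted p = 0.00016). GNP1, a glutamine permease, had -0.63 at 24 min and -3.41 at 345 min, whereas the mean of the other strains stayed between -1.87 and -1.27. Its deviation at 24 min was 1.68 (adjusted p = 0.023). SEO1, annotated as a permease, had 1.99 and 2.37 at the first pair of times and at most 0.57 from 227 min on. The other strains averaged 0.64 and 0.68 at the first pair and peaked at 1.77 at 111 min. SSA2 had 1.5 at 24 min against -0.20 ± 0.96 (SD, n = 8 strains), and its deviation of -1.47 fell at 152 min. ASN2, an asparagine synthetase, had 0.45 at 24 min and between -1.33 and -0.66 afterwards, while the mean of the other strains lay between -0.66 and -0.44. SCW10 lay 1.26 above at 260 min (adjusted p = 0.0126), the time of its second high. The shape calls were the least stable. Leaving out 1 time in turn gave 2 to 16 calls, with 2 without 24 min, of which 1 was among the 11. Without the samples of other strains that rest on 1 array 4 genes were called, and 1 was shared. That setting left YPS2060 too few times for the spline, so the whole strain dropped out as well. Without YPS2073 16 genes were called, with all 11 among them. AGA1 passed in 15 and FIG1 in 16 of 17 alternatives, YGR122CA in 9, GNP1 and SEO1 in 7 and SCW10 in 4.

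The other 4 genes with a changed shape were TFC4 and the identifiers YMR046WA, YGR122CA and YCR018CA. The 3 identifiers match no entry of the RefSeq table and keep their name here, with no role given. YMR046WA had -0.60, 0.25, 1.25, -0.38, 1.56, 1.13, 2.72, 2.84 and 2.82 in the order of the times. YGR122CA had -0.89, 0.56, 1.23, -0.31, 1.81, 1.42, 2.54, 3.29 and 2.22. YCR018CA had -0.60, -0.25, 0.91, -0.46, 0.75, 0.81, 2.04, 2.81 and 2.39. All 3 dipped at 152 min and were highest at 301 min. From 24 to 301 min they changed by 3.45, 4.18 and 3.41 in YPS3060, and by 0.14 ± 0.50, 0.03 ± 0.50 and -0.20 ± 0.34 (SD) in the 8 other strains. In the others the highest single change was 1.19. Over the 9 times their values in YPS3060 correlated in pairs at r = 0.946 to 0.978, and in the other strains the pairwise r ran from -0.235 to 0.961. The samples share their arrays, and whether the 3 probes can bind the same RNA was not tested. TFC4, a subunit of the RNA polymerase III factor TFIIIC, had 0.03 at 24 min, 1.31 at 111 min, 0.42 at 152 min and 2.61 at 301 min, and it too dipped at 152 min. It changed by 2.58 from 24 to 301 min, against 0.33 ± 0.48 in the other strains.

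**Figure D4:**
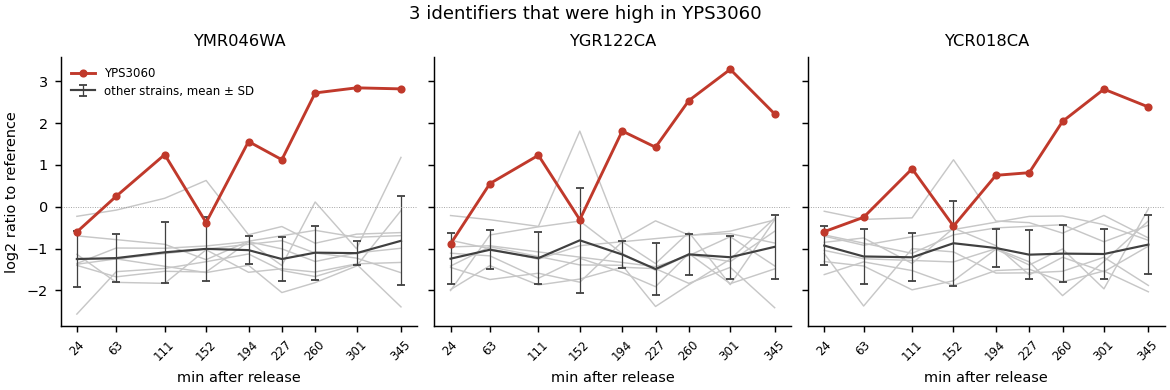
Log2 ratio to the reference of YMR046WA, YGR122CA and YCR018CA at the 9 times, in min after release, in YPS3060 (red), each other strain (grey) and the mean and SD of the other strains (dark line). In YPS3060 the values went from between -0.89 and -0.60 at 24 min to between 2.81 and 3.29 at 301 min, and the means of the other strains stayed near -1.

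The third question was whether a gene's level over the 9 times set YPS3060 apart. It was judged by both a test over strains and a test over times, because each strain had 1 time course. Against the spread of the 8 other strains, with 1 value per strain, limma called 0 genes higher and 0 lower (0% of 6172), and robust limma also called 0. At an unadjusted p under 0.05 there were 149 genes (2.41%). Without YPS183 2 genes were called, YMR046WA and YGR122CA, and with all strains both had an adjusted p of 0.563. No level passed this test, although YPS3060 lay above all 8 other strains in some genes, among them YMR046WA, at 1.29 against -1.67 to -0.31. The 6 lowest p-values among higher genes belonged to IMP21, YMR046WA, YGR122CA, AAT1, MSS11 and TFC4. IMP21, a transcriptional activator, was above the mean of the other strains at 9 of 9 times and above every other strain at 8. Its strain level was 0.58, against -0.01 ± 0.09 (SD over 8 strains; limma adjusted p = 0.563). AAT1, the mitochondrial aspartate aminotransferase, stood at 0.46 against -0.02 ± 0.08, with values between 0.22 and 0.85 (adjusted p = 0.877). MSS11, an activator of the flocculin gene FLO11, stood at 0.55 against -0.04 ± 0.12, with its highest values of 1.32 at 260 min and 1.06 at 345 min (adjusted p = 0.962). Among lower genes the lowest p-values were those of RDS1, RED1, LDB18, DOT5, PRE4 and YBR085C-A, with differences between -0.54 and -0.26 and adjusted p of 0.962 to 0.999. RDS1, a zinc cluster transcription factor, had values between -1.03 and -0.36 and was below the mean of the other strains at 9 of 9 times.

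The other test judged the same time-matched difference by the scatter of times around the additive fit, a smaller error that does not cover cultures. Of 6172 genes 8 were called higher (0.13%) and 18 lower (0.292%), at an adjusted p under 0.05 and a difference of at least 1. The adjusted p alone passed 213 higher (3.45%) and 259 lower genes (4.2%). After quantile normalization 7 were called higher and 3 lower, of which 8 were among the 26. Without YPS2073 the counts were 10 higher and 64 lower, with 24 shared. Against YPS183 alone, the strain of the reference, 119 were higher and 200 lower.

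The 8 higher genes were the 3 identifiers and TFC4 of the shape test, 1 zinc, 1 iron and 2 hexose transport genes. YGR122CA was higher by 2.45 ± 0.24 (SE), YMR046WA by 2.39 ± 0.23 and YCR018CA by 1.96 ± 0.21, with YPS3060 above every other strain at 7 of 9 times for each. ZRT1 was higher by 1.46 ± 0.28, but only from 111 min on, since its values at 24 and 63 min were below the mean of the other strains. Over strains its level was 2.87, against 1.41 ± 1.09 (SD), and YPS2066, YPS2055 and YPS2067 were close at 2.71, 2.69 and 2.41. FRE3, a siderophore-iron reductase, had values between 0.30 and 1.73 and was higher by 1.01 ± 0.12 (limma adjusted p = 6.54e-09), above every other strain at 6 of 9 times. Its strain level of 1.08 was close to that of YPS2066, at 0.97. HXT11 and HXT12, near-identical hexose transporter genes that a probe may not tell apart, were higher by 1.01 ± 0.21 and 1.25 ± 0.18. In HXT11 the values lay between 2.33 and 3.20 at all times, against means of 1.01 to 2.17. The strain level of HXT11 was 2.76, near the 2.56 of YPS2073. TFC4 was higher by 1.06 ± 0.16.

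Among the 18 lower genes MFA1 differed by -1.12 ± 0.30 (SE) and was below the mean of the other strains at 9 of 9 times, but its adjusted p was 0.555 after quantile normalization. HXK1, a hexokinase, had -0.50 at 24 min and -2.33 at 111 min and differed by -1.15 ± 0.30. Its strain level of -1.42 was not the lowest, since YPS2055 stood at -1.53. HSP12, a small membrane-protecting stress protein, had values between -1.32 and 0.80 and differed by -1.03 ± 0.23. TIP1, a cold-induced cell wall mannoprotein, had values between -3.62 and -2.70 and differed by -1.04 ± 0.32, but passed in only 10 of 18 alternatives. The sodium pump genes ENA1 and ENA2, which are tandem copies, differed by -1.04 ± 0.19 and -1.15 ± 0.19. The helicase genes YRF1-4 and YRF1-6, repeated near many chromosome ends, differed by -1.24 ± 0.25 and -1.17 ± 0.22. The other 10 carry only a systematic name (YIL177C, YBL113C, YPR204W, YCL019W, YLL067C, YJL225C, YNL054W-B, YMR158CB, YDR261W-B and YBL101WB), with differences between -1.41 and -1.03. Some ran close together over strains. YIL177C, YPR204W and YRF1-4 stood at -3.28, -3.18 and -3.14 in YPS3060 and at -3.85, -3.64 and -3.68 in YPS2066. Whether such probes bind shared sequences was not tested, so the 18 may not be independent genes. For the ENA and YRF1 genes and these 10 identifiers the other strains spread widely, with strain SDs from 0.87 to 1.83, and 2 other strains lay below YPS3060 in both YRF1 genes. Without YPS183, the strain of the reference, 12 of the 26 differences were under 1 in size. They were smaller by over 1.5 times in 5, with -0.78 for YCL019W, -0.62 for YMR158CB and YNL054W-B, -0.47 for YDR261W-B and -0.46 for YBL101WB. YMR158CB passed in 8 of 18 and YBL101WB in 7 of 17 alternatives.

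**Figure D5:**
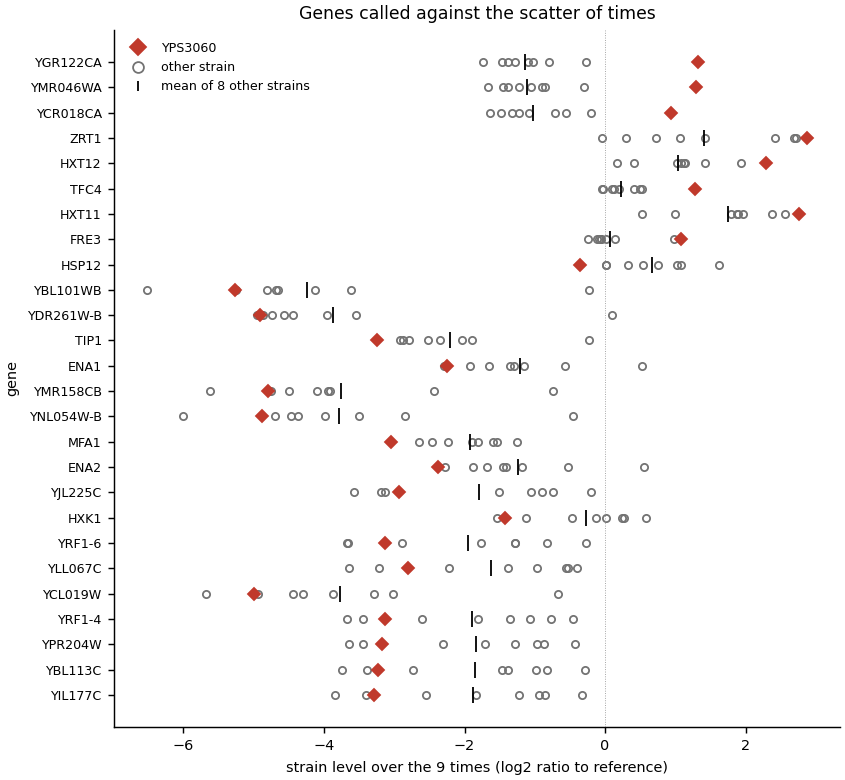
Strain level over the 9 times, as the log2 ratio to the reference, of the 26 genes called against the scatter of times, in YPS3060 (red diamonds) and each other strain (circles), with the mean of the 8 other strains (bar). YPS3060 lies above all other strains in the 3 top identifiers at 0.93 to 1.32, whereas in the YRF1 genes it lies within their range.

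In the gene lists level differences were small. The lists with the largest shares of lower genes were those of variable copy number and of the proteasome. Of 32 measured subunits 13 passed the adjusted p in the scatter-of-times test as lower and 0 as higher, against 4.2% of all genes lower, and the median over the list was -0.20 against 0.00292 over all genes. The count was also 13 after quantile normalization and after scaling each sample to 1 spread, and 14 without YPS2073, but 0 of the 32 reached a difference of 1. Of all 6172 genes 179, 224 and 342 passed as lower in these settings, in that order. RPN8, a subunit of the regulatory lid, had values between -0.87 and 0.00 and differed by -0.57 ± 0.09 (SE, limma adjusted p = 6.36e-06). PRE6, a subunit of the catalytic core, differed by -0.42 ± 0.09, and RPN2, of the regulatory base, by -0.44 ± 0.08. PRE4, a core subunit, was below all other strains at 7 of 9 times. The list mean was 0.28 at 24 min, against 0.26 ± 0.14 (SD, n = 8 strains). It was between -0.32 and -0.08 from 111 min on, below every other strain at each of those 7 times. Of 40 genes of variable copy number or near chromosome ends, 18 passed the adjusted p as lower and 2 as higher, with a median of -0.38, and 11 as lower after quantile normalization. Near-identical copies such as ASP3-1 to ASP3-4, the asparaginase genes, share probes there and are not independent members. ASP3-3 differed by -0.97 ± 0.22. Over all genes 3.45% passed as higher. Of 35 respiratory genes 5 passed as higher, among them RIP1 at 0.60 ± 0.16 and COX5A at 0.42 ± 0.11, and 13 passed without YPS2073. Without that strain 292 of all 6172 genes passed as higher. Of 16 hexose transport genes 5 passed as higher, HXT1, HXT4, HXT6, HXT7 and HXT11, and 0 as lower. The count was 3 after quantile normalization and 4 without the 24 min samples. In those settings 150 and 168 of all 6172 genes passed as higher. Whether probes of these related genes bind shared sequences was not tested. Of 23 iron genes 5 were higher, with FRE1, a reductase, at 0.94 ± 0.17, and 1 was lower. Of 25 amino acid permease genes 5 were lower, with the broad permease AGP1 at -0.95 ± 0.21, and 1 was higher. Without YPS2073 7 of them were lower and 4 higher. After quantile normalization 2 were lower and 1 higher, and without the 24 min samples 3 were lower and 2 higher. Of all 6172 genes 342, 179 and 202 passed as lower in these settings, in that order. In the G2/M list 1 gene passed, or 2 without YPS2073, and in the pheromone list 0 passed. The a-cell list had a median of -0.52, which became 0.04 after quantile normalization.

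The last comparison asked whether the difference between YPS3060 and the other strains was the same at the 9 times with older prints. The difference at those times minus that at the 2007-print times was tested over strains with limma. It was called higher for 29 genes (0.47%) and lower for 23 (0.373%), and after quantile normalization for 15 and 39. Without YPS2073 the counts were 54 and 42, and without both YPS2073 and YPS3137, the strains with many older prints, 160 and 106. Print year and sampling time cannot be told apart in YPS3060, since every older print lies at the other times. Across all genes the differences at the 2007-print and the older-print times correlated at r = -0.278, a value that does not give the share of genes that changed sign. Of the 26 genes called for a level, 6 had the same sign at the older-print times and 0 were at least 1 in the same direction. The same shares over all genes were not counted, so nothing particular to the called genes can be read from these counts. For YMR046WA the difference was 2.39 at the 2007-print times and 0.80 at the others, for YGR122CA 2.45 and 0.79, and for YCR018CA 1.96 and 0.71. FRE3 had 1.01 and -0.02. YRF1-4 had -1.24 and 0.64 (limma adjusted p = 0.0044 for the change). Among the called genes the largest change was that of YHR214WA, at 0.67 and -2.36. YMR158CB went from -1.04 to 1.53, YDR098C-B from -0.87 to 1.69 and YCL019W from -1.22 to 1.31, and YJR028W and YER137C-A also went from negative to positive. After quantile normalization 5 of these 6 were not called, with adjusted p from 0.218 to 0.591, and YHR214WA was (adjusted p = 0.0126). The 6 identifiers get no role here. EKI1, an ethanolamine kinase, IBD2, a spindle checkpoint protein, and KGD2, a subunit of the alpha-ketoglutarate dehydrogenase, had differences of 0.08, 0.04 and 0.00 at the 2007-print times and -4.29, -4.19 and -3.65 at the older-print times. The change was not called in any of the 3 (limma adjusted p = 0.416, 0.429 and 0.499). At the 2007-print times EKI1 ranged from -0.20 to 0.31 and IBD2 from -0.20 to 0.32 in YPS3060.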

How the data were processed

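Members, gene lists and tests were chosen with earlier results of these data known. Per the labels, each sample was hybridised on 1 or more 2-colour spotted arrays with dye swaps, and the deposited table gives 1 log ratio per gene and sample, treated as log2. How arrays were combined, the normalization, logarithm base and direction are not given in the sources used here. Base 2 was assumed, and the direction is likely sample over reference. Scale and centring stay unknown. No value was missing. Of 6172 identifiers 5554 matched the RefSeq gene table directly, 192 with a hyphen restored and 426 not at all. A further 7 columns matched no sample and were not used.

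Fits used limma 3.58.1 in R 4.3.3 over 75 samples of 9 strains, with Benjamini-Hochberg adjustment over all genes and a size of at least 1. Python 3.11.15, numpy 2.4.6 and pandas 2.3.3 did the rest. Levels came from an additive fit of strain and time, tested over strains and over the scatter of times. Time courses used a natural spline of 4 degrees of freedom for each strain. All fits were run on simulated data whose noise and strain spread were set below those of the real data. Their error rates in the real data were therefore not shown.

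Genes were named by rule: up to 12 highest and lowest levels among calls with 1 sign at 8 or more times (the 6 lowest p in each direction where fewer than 6 were called), the 12 largest fitted ranges, the 6 largest shape deviations, up to 4 members of each list by level, the landmark genes, the 6 largest print-set changes, and 6 identifiers from earlier results. Other genes named, among them further list members, the other shape calls and the 26 level calls, were chosen after their values were seen. The pairs of times for changes between samples mostly follow the highs and lows of YPS3060.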

Additional observations from a re-analysis of the deposited data

Results flagged for a closer look

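In 3 of 50 sets of 9 values, 1 sample lay far from the other 8, where chance gives about 5% of sets. The sets were time-matched differences of single genes between YPS3060 and the mean of the other strains. They also included the spread of the samples and their correlation with the other strains. RED1 differed by -1.12 at 260 min, against a median of -0.19. YFL002W-A differed by 3.59 at 63 min, against a median of -1.22. IBD2 differed by -0.39 at 194 min, against a median of 0.08.

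For 52 genes the difference from the other strains changed between the print sets. On the log2 scale the older-print minus 2007-print change was -3.03 for YHR214WA, 2.58 for YMR158CB, 2.56 for YDR098C-B, 2.53 for YCL019W, 2.52 for YJR028W, 2.13 for YER137C-A and 1.19 for YBR085C-A. Print year and sampling time cannot be told apart there.

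For 11 genes the curve of YPS3060 differed in shape from that of the other strains. The largest centred deviation was 1.98 for AGA1, 1.68 for GNP1, 1.56 for SEO1 and 1.31 for FIG1, all at 24 min. It was -1.94 for YGR122CA and -1.67 for YMR046WA at 24 min, -1.47 for SSA2 at 152 min, 1.07 for TFC4 at 260 min and 1.78 for YCR018CA at 301 min.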

How the results depend on the processing

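Among the level, shape and print-set values followed through the alternatives, none changed sign. Fitted ranges cannot be negative, and only part of the time-course and print-set calls was followed. After quantile normalization the median level difference of 4 lists changed sign, from -0.52 to 0.04 (a-cell genes), -0.10 to 0.06 (phosphate), -0.09 to 0.08 (separation) and -0.07 to 0.02 (landmarks). A further 5 lists with medians within 0.03 of 0 did so without 24 min or YPS2073. Level calls against the scatter of times, 26 in all, numbered 10 after quantile normalization (7 higher, 3 lower), 74 without YPS2073, 472 with no size required, 319 against YPS183 alone, and 19 to 31 when 1 time was left out. Time-course calls, 282 in all, numbered 167 after quantile normalization (162 shared) and 133 to 244 when 1 time was left out. Shape calls, 11 in all, numbered 4 without samples on 1 array, a setting in which strain YPS2060 dropped out as a whole. They numbered 33 with no size required, 5 with a spline of 5 degrees of freedom and 2 to 16 when 1 time was left out. Level calls against the spread of strains numbered 0 to 2 when 1 strain was left out. Print-set calls, 52 in all (29 higher, 23 lower), numbered 96 without YPS2073 and 54 after quantile normalization (15 higher, 39 lower). Alternatives chosen after seeing the data gave 266 print-set calls without YPS2073 and YPS3137, and 157 time-course calls without YPS2073 and the 24 min samples (130 shared). The causes were not tested. No paired analysis was possible because replicate numbers follow accession order only; time was already a term of the level fits. Signal over background is unknown, so a limit from dim spots could not be given.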
